A study of Mus musculus with 6 samples.

Results

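The hexosamine pathway makes UDP-N-acetylglucosamine (UDP-GlcNAc), the sugar donor from which single N-acetylglucosamine residues (O-GlcNAc) are added to proteins. It is followed here through 8 genes, Gfpt1, Gfpt2, Gnpnat1, Pgm3, Uap1, Ogt, Mgea5 and Nagk. They were taken by symbol from a table of 23337 genes, as a list of enzymes, and 8 of 8 passed the filter on low counts that left 14587 genes. The RNA came from cardiomyocytes of wildtype mice that were injected with an adeno-associated virus (AAV) on postnatal day 1. When the animals were 4 weeks old, the hearts were digested by Langendorff perfusion through the coronary vessels and the cardiomyocytes were sorted by flow cytometry. Mice received GFP as the control gene (AAV-GFP), XBP1S (AAV-XBP1S) or ATF6N (AAV-ATF6N), with 2 libraries in each of the 3 groups, and the treatment field of the labels shortens the latter names to AAV-XBP1 and AAV-ATF6. Wildtype genotype, injection age, age at isolation and sorting were shared by all groups, controls included. The labels name neither the promoter that drives the viral gene, nor the marker used for sorting, nor the animals behind each library. The p-values below therefore measure the spread between libraries, which may be technical. In cells that were pooled before sequencing, fewer cells of a type and less RNA per cell cannot be told apart.

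The pathway branches off glycolysis. GFPT1 and GFPT2, which are paralogs, pass the amide nitrogen of glutamine to fructose 6-phosphate in the rate-limiting step, GNPNAT1 acetylates the product, PGM3 moves the phosphate and UAP1 joins the sugar to UTP. OGT then attaches GlcNAc to serine and threonine of nuclear and cytosolic proteins, the enzyme encoded by Mgea5 (O-GlcNAcase, OGA) removes it, and NAGK phosphorylates free GlcNAc so that it can be used again. In the heart O-GlcNAc is known as a nutrient- and stress-responsive modification. XBP1S names the product of spliced Xbp1 mRNA and ATF6N the nuclear fragment of ATF6, both transcription factors of the unfolded protein response. Gfpt1 is known as a target of spliced XBP1 in cardiomyocytes. The genes followed here were listed as known targets of spliced XBP1 in the heart, so they were not chosen without regard to XBP1.

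The difference of smallest p among the 8 genes was in Gfpt2, which had 2.49 times the AAV-GFP level in the AAV-ATF6N libraries and no higher level in the AAV-XBP1S libraries. Its paralog Gfpt1, the phosphate-moving Pgm3, Uap1 and the cycling enzymes Ogt and Mgea5 were also above both AAV-GFP libraries in both AAV-ATF6N libraries. Of all genes tested, 27.9% were likewise higher without overlap. The log2 fold changes of Ogt and Mgea5, 0.74 and 0.83, were 0.40 and 0.40 without AAV-GFP replicate 1. With AAV-XBP1S, Pgm3 had 2.00 times the control level and Uap1 was 1.23 times as high, while the other members overlapped the controls. Here 19.1% of all genes tested were higher without overlap. No member passed an adjusted p of 0.05 by edgeR's quasi-likelihood test in any comparison. Gfpt2 passed in both comparisons of AAV-ATF6N by DESeq2.

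The 250 bases before the start sites of both entry enzymes and of Pgm3, whose values lead the comparisons of AAV-ATF6N (Gfpt2) and AAV-XBP1S (Pgm3), are shown first, read 5′ to 3′ along the gene from the RefSeq promoter table (GRCm38.p6, the assembly of mm10). Capitals mark the letters CCACG or, on the other strand, CGTGG, a core shared by elements that XBP1 and ATF6 are known to bind. The Gfpt1 window lies at chr6:87042596-87042845 on the plus strand, that of Gfpt2 at chr11:49793905-49794154 on the plus strand and that of Pgm3 at chr9:86571843-86572092 on the minus strand.
Gfpt1: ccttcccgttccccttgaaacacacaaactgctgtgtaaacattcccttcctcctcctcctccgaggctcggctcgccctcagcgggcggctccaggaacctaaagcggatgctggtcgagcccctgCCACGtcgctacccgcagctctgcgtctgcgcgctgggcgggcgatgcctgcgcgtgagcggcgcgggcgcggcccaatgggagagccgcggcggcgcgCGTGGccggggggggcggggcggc
Gfpt2: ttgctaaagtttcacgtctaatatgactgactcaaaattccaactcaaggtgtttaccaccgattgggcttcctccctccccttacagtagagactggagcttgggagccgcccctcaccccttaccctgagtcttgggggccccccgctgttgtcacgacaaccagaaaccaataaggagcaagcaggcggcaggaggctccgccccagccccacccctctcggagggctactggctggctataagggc
Pgm3: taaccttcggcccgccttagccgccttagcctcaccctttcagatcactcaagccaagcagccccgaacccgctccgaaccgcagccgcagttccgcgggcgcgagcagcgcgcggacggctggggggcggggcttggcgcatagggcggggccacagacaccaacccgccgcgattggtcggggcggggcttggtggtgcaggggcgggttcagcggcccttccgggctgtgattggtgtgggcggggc
The Gfpt1 window held the core at 123 bases before the start site on the gene's strand and at 24 bases before it on the opposite strand. The Gfpt2 window held none, and in Pgm3 the core stood 24 bases after the start site, outside the bases shown. A search of both strands of the full RefSeq window, 250 bases before to 50 after the start, covered 7 of the 8 members in 8 windows, with Mgea5 under its newer name Oga and Ogt with 2 start sites. Gnpnat1 had no entry. CCACG was in 3 of the 8 windows (Gfpt1, Pgm3 and Uap1) and in 32.8% of all 32851 windows of the table. The letters TGACGTG were in 1 member window, that of Uap1 2 bases after the start, and in 2.01% of all windows. The site is shown here with its neighbours from chr1:170174945-170174974 on the minus strand, in capitals the TGACGTG.
Uap1: ttctcggtcgcTGACGTGtcgggccggcag
The longer form TGACGTGG (0.676% of all windows), TGACGTCA (1.79%) and CCAAT followed by 9 bases and CCACG (0.119%) matched none of the 8 member windows. TGACGTGG overlaps other letters searched, since it contains TGACGTG and, on the other strand, CCACG. These are matches of letters, and binding was not measured.

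Total counts ran from 67702482 to 112049342 per library. The labelled cell type was checked with 8 cardiomyocyte markers, which together made up 82041 to 115220 CPM (counts scaled to library size after TMM adjustment) in every library, with none at 0. Summed levels of 8 markers each were 468 to 967 CPM for fibroblasts, 532 to 1310 for endothelium, 29.5 to 45.8 for macrophages and leukocytes and 952 to 1320 for smooth muscle and pericytes, with none at 0 in any library. Xbp1 was at 98.0 and 115 CPM with AAV-GFP, 160 and 166 with AAV-XBP1S and 145 and 152 with AAV-ATF6N. Atf6 was at 44.9 and 70.6 CPM with AAV-GFP, 77.0 and 111 with AAV-XBP1S and 162 and 158 with AAV-ATF6N. Both genes carrying the viruses' names were thus above the controls in both treated groups, not only in their own. By edgeR the log2 fold change of Xbp1 was 0.61 (adjusted p = 0.307) for AAV-XBP1S against AAV-GFP. Between AAV-ATF6N and AAV-XBP1S it was -0.14 (0.802). That of Atf6 was 1.47 (0.126) for AAV-ATF6N against AAV-GFP and 0.76 (0.328) against AAV-XBP1S. Counts per gene do not separate viral from endogenous or spliced from unspliced transcripts. AAV-GFP replicate 1 stood apart from the other 5 libraries on the first principal component (43.9% of variance, score -99.6 against -14.2 to 46.0) and had the highest share of the ribosomal precursor Rn45s, 0.337% against 0.0319% to 0.130%. The AAV-GFP libraries therefore differ from each other, and results that rest on one of them are given without it. The groups also differed in transcripts that mark sex: the Y-linked Eif2s3y had 0 counts in both AAV-XBP1S libraries and 43.2 to 44.3 CPM in AAV-ATF6N, where the X-inactivation transcript Xist was at 0.0919 to 0.197 CPM against 20.2 to 43.1 in AAV-XBP1S. The AAV-GFP libraries had both Eif2s3y (13.7 and 16.6 CPM) and Xist (7.88 and 24.6 CPM). The sex of the animals and the virus cannot be told apart in any of the comparisons.

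**Figure D1:**
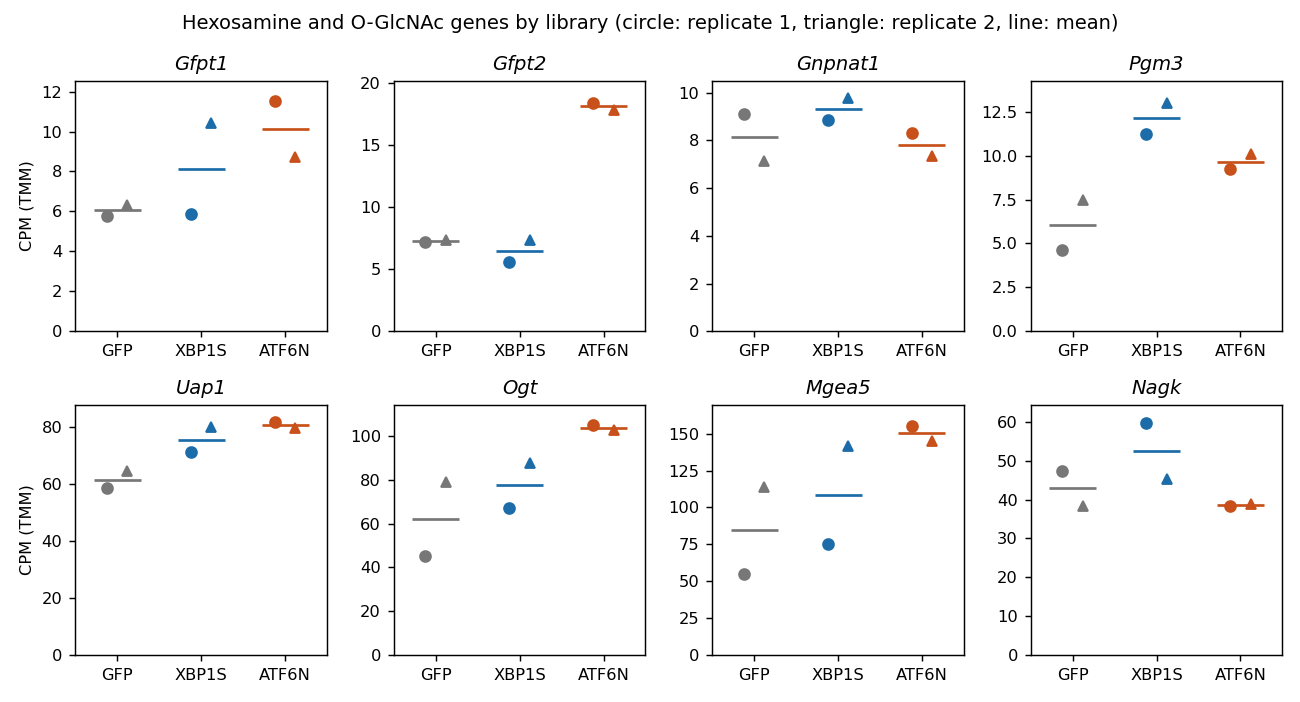
Level of each of the 8 genes in each library in TMM-scaled CPM (vertical axes, each from 0), by virus (horizontal axis), with replicate 1 as a circle, replicate 2 as a triangle and the mean of 2 libraries as a line. Gfpt2 is at 17.8 and 18.3 CPM in AAV-ATF6N and at 5.59 to 7.36 CPM in the other 4 libraries, while Ogt and Mgea5 differ widely between the AAV-GFP libraries.

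Gfpt2 (chromosome 11, 49794155 to 49838620, plus strand of mm10, 19 distinct exons) encodes the paralog of the main entry enzyme. It had 7.18 and 7.32 CPM with AAV-GFP, 5.59 and 7.36 with AAV-XBP1S and 18.3 and 17.8 with AAV-ATF6N. Both AAV-ATF6N libraries lay far above the other 4, and AAV-XBP1S overlapped AAV-GFP. Means were 7.25 ± 0.0987 (SD, n = 2), 6.47 ± 1.25 and 18.1 ± 0.383 CPM. The log2 fold change of AAV-ATF6N against AAV-GFP was 1.32 (SE 0.23), with an unadjusted p of 0.000911, rank 143 of 14587 genes, and an adjusted p of 0.0930 by edgeR's quasi-likelihood test. Against AAV-XBP1S it was 1.48 (SE 0.24, edgeR adjusted p = 0.0651, rank 106), a 2.79-fold ratio of means. Between AAV-XBP1S and AAV-GFP it was -0.16 (SE 0.23, edgeR adjusted p = 0.798).

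The size of the Gfpt2 difference hardly moved with the processing, and its place around the threshold did. DESeq2 on the same counts gave an adjusted p of 0.000388 for AAV-ATF6N against AAV-GFP and of 3.09e-05 against AAV-XBP1S. In the authors' deposited table for AAV-ATF6N against AAV-GFP, Gfpt2 had a log2 fold change of 1.32 and an adjusted p of 0.00487. By edgeR the same comparison passed without the filter on low counts (adjusted p = 0.0232), with a gene-length offset (0.0411) and without AAV-GFP replicate 2 (0.0351), and gave 0.175 when only the 4 libraries compared entered the fit and up to 0.802 when an AAV-ATF6N library was left out. It passed in 5 of the 14 alternatives, the replicate block among those 5. The alternative without both libraries of highest Rn45s share was given no p-value, so it could not pass. Over the 14 alternatives its log2 fold change stayed between 1.21 and 1.34.

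Gfpt1 (chromosome 6, 87042846 to 87092207, plus strand, 19 distinct exons) encodes the entry enzyme that is more widely expressed. Its levels were 5.77 and 6.33 CPM with AAV-GFP, 5.86 and 10.4 with AAV-XBP1S and 11.5 and 8.73 with AAV-ATF6N. Both AAV-ATF6N libraries were above both controls, whereas the AAV-XBP1S libraries spread across them, one at the control level and one nearly as high as the upper AAV-ATF6N library. The log2 fold change was 0.43 (SE 0.33) for AAV-XBP1S and 0.74 (SE 0.33) for AAV-ATF6N against AAV-GFP, at adjusted p-values by edgeR of 0.654 and 0.379. Without AAV-XBP1S replicate 2 the value for AAV-XBP1S was -0.039, and without AAV-XBP1S replicate 1 it was 0.83. The value for AAV-ATF6N was 0.38 with a gene-length offset. In the authors' deposited tables the adjusted p of Gfpt1 was 0.960 for AAV-XBP1S and 0.319 for AAV-ATF6N.

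The balance of the entry enzymes was described by the ratio of Gfpt1 to Gfpt2 in CPM per kilobase of exon. It was 0.384 and 0.413 with AAV-GFP, 0.501 and 0.677 with AAV-XBP1S and 0.30 and 0.234 with AAV-ATF6N. The 3 groups did not overlap, and Gfpt2 had the higher level per length in every library. These ratios are a description, and no test was made of them.

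**Figure D2:**
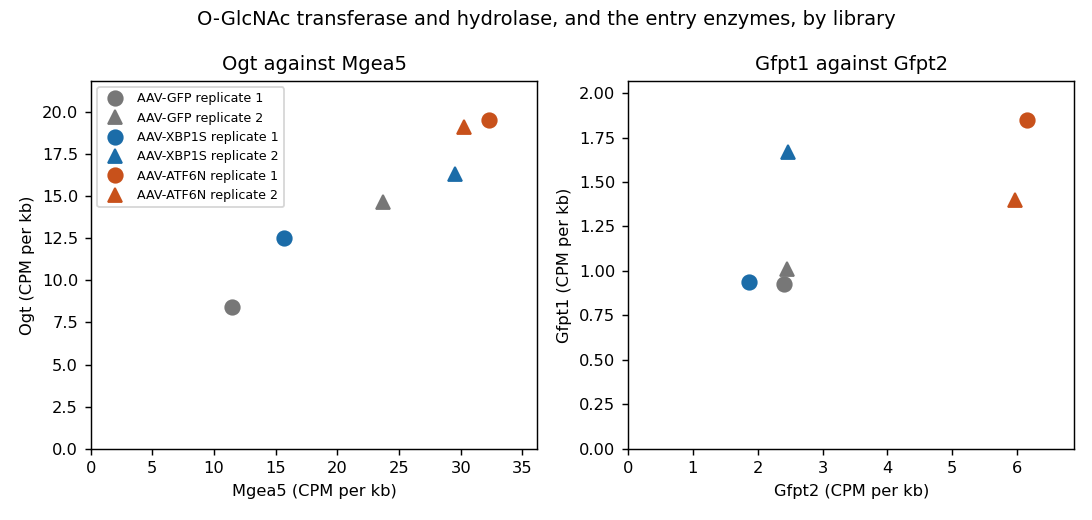
Ogt against Mgea5 (left) and Gfpt1 against Gfpt2 (right) in CPM per kilobase of exon, with 1 point per library, colour for the virus and shape for the replicate. The Ogt and Mgea5 levels lie close to a line through all 6 libraries, whereas the AAV-ATF6N libraries stand to the right of the others in Gfpt2.

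Pgm3 (chromosome 9, 86552476 to 86571842, minus strand, 13 distinct exons) encodes phosphoacetylglucosamine mutase. It was at 4.63 and 7.49 CPM with AAV-GFP, 11.2 and 13.0 with AAV-XBP1S and 9.27 and 10.1 with AAV-ATF6N. All 4 treated libraries lay above both controls, and both AAV-XBP1S libraries above both AAV-ATF6N libraries. The means were 6.06 ± 2.02 (SD, n = 2), 12.1 ± 1.26 and 9.67 ± 0.571 CPM. The log2 fold change of AAV-XBP1S against AAV-GFP was 1.00 (SE 0.29), with an unadjusted p of 0.0113 and an adjusted p of 0.285 by edgeR and 0.0779 by DESeq2. That of AAV-ATF6N against AAV-GFP was 0.67 (SE 0.29, edgeR adjusted p = 0.376), and that of AAV-ATF6N against AAV-XBP1S was -0.33 (SE 0.29, edgeR adjusted p = 0.685). The size depended on which control library was kept. The AAV-XBP1S value was 0.69 without AAV-GFP replicate 1 and 1.42 without AAV-GFP replicate 2. For AAV-ATF6N the values were 0.37 and 1.07 in the same order. In the annotation used for counting, 1388 exon bases of Pgm3, 30.3% of its total, lie opposite exons of Dopey1 on the other strand. The kits named in the labels do not keep strand. Dopey1 was at 7.89 and 12.9 CPM with AAV-GFP, 7.13 and 19.9 with AAV-XBP1S and 21.5 and 19.7 with AAV-ATF6N, and its part in the Pgm3 counts was not tested.

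Uap1 (chromosome 1, 170142003 to 170174946, minus strand, 11 distinct exons) encodes the pyrophosphorylase that completes UDP-GlcNAc. It had 58.7 and 64.3 CPM with AAV-GFP, 71.0 and 80.0 with AAV-XBP1S and 81.6 and 79.6 with AAV-ATF6N. Neither treated group overlapped the controls, and the treated groups overlapped each other. The log2 fold change was 0.30 (SE 0.19) for AAV-XBP1S and 0.39 (SE 0.19) for AAV-ATF6N, at adjusted p-values by edgeR of 0.595 and 0.389. Over the 14 alternatives these values ran from 0.22 to 0.42 and from 0.32 to 0.46.

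Gnpnat1 (chromosome 14, 45376421 to 45388796, minus strand, 6 distinct exons), the acetyltransferase between entry and Pgm3, showed no such difference. It was at 9.10 and 7.16 CPM with AAV-GFP, 8.86 and 9.77 with AAV-XBP1S and 8.32 and 7.33 with AAV-ATF6N. Each treated group overlapped the controls, and both AAV-ATF6N libraries were below both AAV-XBP1S libraries. The log2 fold changes against AAV-GFP were 0.20 (SE 0.24) and -0.06 (SE 0.24), and the direct one between the treated groups was -0.25 (SE 0.24), at adjusted p-values by edgeR of 0.766, 0.911 and 0.713. The enzyme's gene shares 464 exon bases (18.3%) with Styx on the other strand, which was at 0.0919 to 1.16 CPM.

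The transferase and the hydrolase of O-GlcNAc cycling moved with each other from library to library. Ogt (X chromosome, 101640064 to 101684351, plus strand, 22 distinct exons) was at 45.2 and 78.9 CPM with AAV-GFP, 67.3 and 87.7 with AAV-XBP1S and 105 and 103 with AAV-ATF6N. Mgea5 (chromosome 19, 45750259 to 45783291, minus strand, 16 distinct exons) was at 55.1 and 114 CPM with AAV-GFP, 75.3 and 142 with AAV-XBP1S and 155 and 145 with AAV-ATF6N. For both genes the AAV-ATF6N libraries were above the other 4, AAV-XBP1S overlapped AAV-GFP, and replicate 1 was the lower library in both AAV-GFP and AAV-XBP1S. Pearson's r of their log2 CPM was 0.97 over the 6 libraries. This is a description over libraries that differ by group, with AAV-GFP replicate 1 apart from the others. The height of r was not particular to this pair. Ogt had an r of 0.998 with Pnpt1, a gene outside the pathway, and of 0.89 with Uap1 and 0.80 with Gfpt1. With Gnpnat1 and Nagk it was -0.39 and -0.57. The ratio of Ogt to Mgea5 per kilobase was 0.732 and 0.617 with AAV-GFP, 0.796 and 0.551 with AAV-XBP1S and 0.603 and 0.629 with AAV-ATF6N. All 3 groups overlapped in this ratio, and Mgea5 had the higher level per length in every library.

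The log2 fold change of Ogt was 0.32 (SE 0.30) for AAV-XBP1S and 0.74 (SE 0.30) for AAV-ATF6N against AAV-GFP, at adjusted p-values by edgeR of 0.703 and 0.365 and, for AAV-ATF6N, an unadjusted p of 0.0446. For Mgea5 the values were 0.36 (SE 0.42) and 0.83 (SE 0.42), at adjusted p-values by edgeR of 0.751 and 0.392. The size of these values depended on which control library was kept. Without AAV-GFP replicate 1 the AAV-ATF6N values were 0.40 for Ogt and 0.40 for Mgea5, and the AAV-XBP1S values -0.029 and -0.073. Without AAV-GFP replicate 2, which left AAV-GFP replicate 1 as the only control, the AAV-ATF6N values were 1.20 for Ogt and 1.45 for Mgea5. Since Ogt is X-linked, the Xist and Eif2s3y levels given above move with these groups, and their part in the Ogt level was not tested. Summed over 4 X-linked genes that escape inactivation in the mouse, the level was 159 and 178 CPM with AAV-GFP, 172 and 218 with AAV-XBP1S and 152 and 143 with AAV-ATF6N. By gene they went both ways, with 2 of 4 above 0 for AAV-ATF6N against AAV-GFP and 3 of 4 for AAV-XBP1S against AAV-GFP.

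Nagk (chromosome 6, 83795057 to 83802556, plus strand, 11 distinct exons), the salvage kinase, was not above the controls with AAV-ATF6N. It was at 47.3 and 38.4 CPM with AAV-GFP, 59.7 and 45.4 with AAV-XBP1S and 38.4 and 39.0 with AAV-ATF6N. AAV-XBP1S overlapped the controls from above, AAV-ATF6N lay at the level of the lower control, and the treated groups did not overlap. The log2 fold change was 0.29 (SE 0.23) for AAV-XBP1S, -0.15 (SE 0.23) for AAV-ATF6N and -0.44 (SE 0.23) for AAV-ATF6N against AAV-XBP1S, at adjusted p-values by edgeR of 0.652, 0.731 and 0.465. With a gene-length offset the AAV-ATF6N value turned to 0.17.

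Levels of different genes were compared per kilobase of exon. In AAV-GFP the order was Nagk (mean 30.2 CPM per kilobase), Uap1 (26.9), Mgea5 (17.6), Ogt (11.5), Gnpnat1 (3.21), Gfpt2 (2.43), Pgm3 (1.32) and Gfpt1 (0.968). Neighbours whose libraries overlapped were Nagk and Uap1, Mgea5 and Ogt, and Pgm3 and Gfpt1. Gfpt1 thus had the lowest mean of the 8 in the controls, below its paralog Gfpt2, at percentile 29.0 of the genes tested by level per length, and it stayed last in both treated groups. In AAV-XBP1S, Pgm3 (2.65) was ahead of Gfpt2 (2.17) with overlapping libraries. In AAV-ATF6N the order was Uap1 (35.3), Mgea5 (31.3), Nagk (27.2), Ogt (19.3), Gfpt2 (6.05), Gnpnat1 (3.09), Pgm3 (2.11) and Gfpt1 (1.62), with no overlap between neighbours. Counts behind these levels were 451 to 12583 per gene and library, whose exact Poisson 95% intervals reach 9.34% to 1.75% either side. Those intervals cover counting error only.

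The comparison of AAV-XBP1S with AAV-GFP asks what spliced XBP1 does to this pathway. Pgm3 and Uap1 were above both controls in both libraries, 7 of 8 members had a log2 fold change above 0 and the median was 0.31, beside -0.01 over all genes tested. By edgeR 0 of 8 passed an adjusted p of 0.05, where 0.315% of all genes tested did. By DESeq2 0 passed, where 484 genes in all were called. At an unadjusted p under 0.05 there was 1 member (Pgm3), where the background was 11.6%. Groups did not overlap in the higher direction for 2 of 8 members against 19.1% of all genes and in the lower direction for 0 against 16.8%, so these counts are near the background. Markers moved with the same comparison. Of the fibroblast markers 8 of 8 had a log2 fold change above 0, with a summed level of 468 and 605 CPM in AAV-GFP and 813 and 967 in AAV-XBP1S. Endothelial markers likewise had 8 of 8 above 0 and sums of 592 and 856 against 960 and 1310 CPM. Smooth muscle and pericyte markers had 8 of 8 above 0, and macrophage and leukocyte markers 6 of 8. Cardiomyocyte markers had 2 of 8 above 0, with sums of 101568 and 91726 CPM in AAV-GFP against 82041 and 85948 in AAV-XBP1S. No marker of these lists was at 0, and their part in the member levels was not tested.

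The comparison of AAV-ATF6N with AAV-GFP asks the same of ATF6. Gfpt1, Gfpt2, Pgm3, Uap1, Ogt and Mgea5 were above both controls in both libraries, and Gnpnat1 and Nagk overlapped them. The median log2 fold change was 0.71 over the 8 members and -0.02 over all genes tested. It was 0.38 without AAV-GFP replicate 1 and 0.42 with a gene-length offset. By edgeR 0 of 8 passed an adjusted p of 0.05, where 0.514% of all genes did. By DESeq2 1 did, Gfpt2, where 573 genes in all were called. An unadjusted p under 0.05 was reached by 2 (Gfpt2 and Ogt), with a background of 13.5%. In 6 of 8 members the groups did not overlap in the higher direction, against 27.9% of all genes, and in 0 in the lower direction, against 26.7%. Here, too, markers moved: fibroblast markers summed to 830 and 795 CPM in AAV-ATF6N with 6 of 8 above 0, endothelial markers to 581 and 532 CPM with 1 of 8 above 0, and 8 immediate early genes, which respond to cell isolation, to 1790 and 1782 CPM against 1198 and 1073 in AAV-GFP. Of the immediate early genes 7 of 8 had a log2 fold change above 0 and 3 passed the edgeR test, and their part in the member levels was not tested.

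AAV-ATF6N was also set directly against AAV-XBP1S, although virus and sex cannot be told apart in this comparison either. Gfpt2, Ogt and Mgea5 were higher with AAV-ATF6N without overlap, and Gnpnat1, Pgm3 and Nagk were lower without overlap. The median over the 8 members was 0.21, beside -0.01 over all genes tested. By edgeR 0 members passed an adjusted p of 0.05, with a background of 0.226%. By DESeq2 1 did, again Gfpt2, where 803 genes in all were called. At an unadjusted p under 0.05 there was 1 member by edgeR (Gfpt2), with a background of 13.2%. The 3 members without overlap in the higher direction stand beside 30.1% of all genes, and the 3 in the lower direction beside 26.8%. Markers moved here as well. Endothelial markers had 0 of 8 above 0, 8 of 8 lower without overlap and a median of -1.0, with sums of 581 and 532 CPM in AAV-ATF6N against 960 and 1310 in AAV-XBP1S. Of the immediate early genes 7 of 8 were higher without overlap, with sums of 1790 and 1782 against 1277 and 1211 CPM. No gene of either list was at 0, and their part in the member levels was not tested. Both comparisons against AAV-GFP share the same control libraries, so their values are set side by side and no overlap between them was counted.

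**Figure D3:**
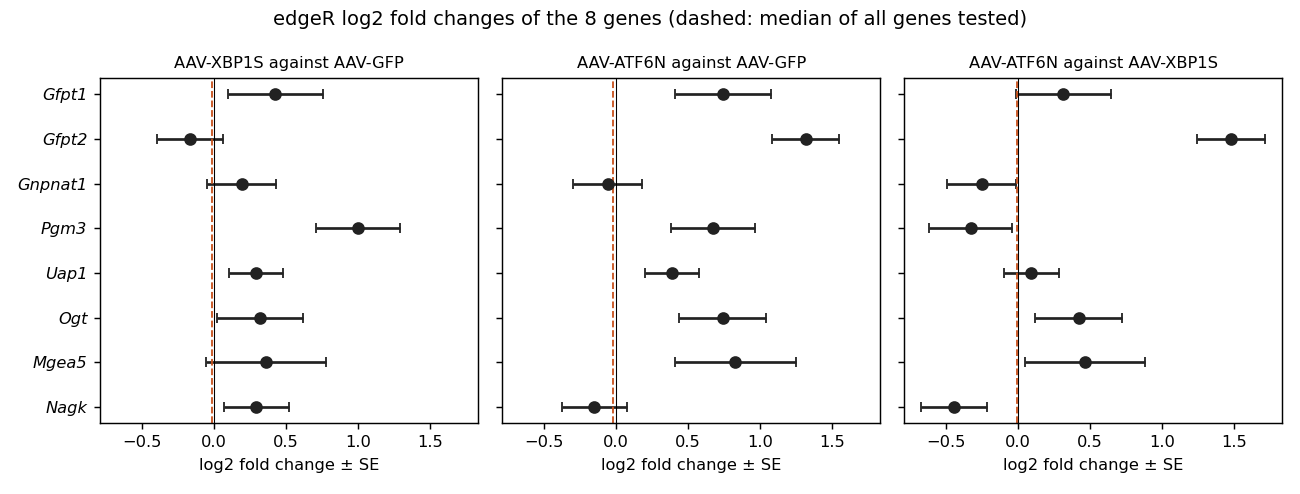
Log2 fold change of each of the 8 genes by edgeR (horizontal axis) in the 3 comparisons, with bars of 1 standard error and a dashed line at the median of all genes tested. Gfpt2 lies at 1.32 and 1.48 in the comparisons of AAV-ATF6N and at -0.16 for AAV-XBP1S against AAV-GFP, and Pgm3 at 1.00 for AAV-XBP1S.

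**Figure D4:**
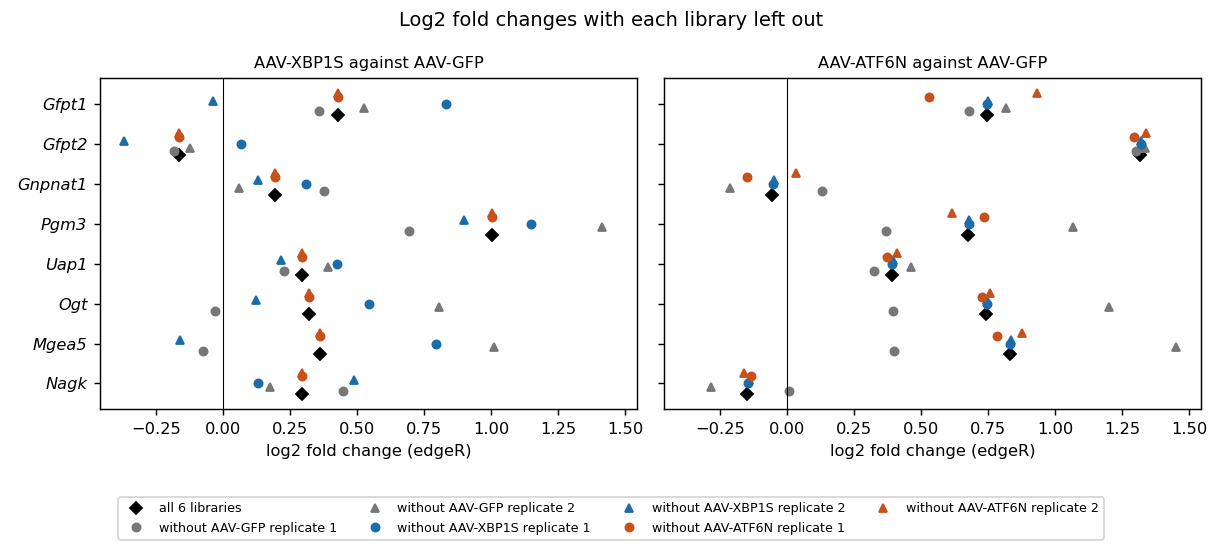
Log2 fold changes against AAV-GFP by edgeR (horizontal axis) with all 6 libraries (diamonds) and with each library left out (coloured circles and triangles). Gfpt2 stays near 1.32 for AAV-ATF6N whichever library is left out, while Ogt and Mgea5 range from 0.40 to 1.20 and 1.45 with the AAV-GFP library removed.

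Neighbouring steps were followed with 4 lists: 20 genes of N-glycans, hyaluronan and Golgi sugar handling, most of which use or carry UDP-GlcNAc, 16 of amino sugar salvage, breakdown and sialic acid, 23 that supply glucose, glutamine, acetyl groups and uridine, and 13 partners and regulators of OGT and OGA. By edgeR 0 genes of these lists passed in any comparison. Of the 23337 genes entered, DESeq2 called 484 for AAV-XBP1S and 573 for AAV-ATF6N against AAV-GFP, and 803 between the treated groups. By DESeq2 the N-glycan, hyaluronan and Golgi genes had 1 for AAV-XBP1S and 2 for AAV-ATF6N against AAV-GFP, the supply genes 0 and 1, and the other lists 0, while between the treated groups the 4 lists had 3, 2, 1 and 0 in the order given. At an unadjusted edgeR p under 0.05 the counts for AAV-XBP1S were 5, 1, 5 and 0 of the 4 lists in the order given (11.6% of all genes), for AAV-ATF6N 3, 1, 3 and 2 (13.5%) and for the direct comparison 5, 2, 7 and 1 (13.2%). The medians were 0.35, 0.13, -0.11 and 0.03 for AAV-XBP1S and 0.21, -0.14, 0.29 and 0.48 for AAV-ATF6N. The direct medians were -0.15, -0.25, 0.40 and 0.27.

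In the list of N-glycan, hyaluronan and Golgi genes, Uggt1, a glucosyltransferase that senses misfolded glycoproteins in the endoplasmic reticulum and takes its sugar from UDP-glucose, was at 31.4 and 34.7 CPM with AAV-GFP, 43.6 and 59.5 with AAV-XBP1S and 97.9 and 93.4 with AAV-ATF6N. The groups did not overlap, and the log2 fold change for AAV-ATF6N was 1.53 (SE 0.23, edgeR adjusted p = 0.0529). Has1, a hyaluronan synthase, had a low level throughout, 0.428 ± 0.228 CPM (SD, n = 2) in AAV-GFP and 2.23 ± 0.422 in AAV-ATF6N (log2 fold change 2.37, edgeR adjusted p = 0.190). Mgat4b, a branching transferase of N-glycans, was at 174 ± 15.2 CPM in AAV-GFP and 108 ± 4.23 in AAV-XBP1S (-0.69, edgeR adjusted p = 0.249).

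On the supply side, Hk2, a hexokinase that commits glucose to glucose 6-phosphate, was at 187 and 194 CPM with AAV-GFP, 100 and 126 with AAV-XBP1S and 220 and 205 with AAV-ATF6N. AAV-XBP1S was below and AAV-ATF6N above the controls without overlap, and the log2 fold change for AAV-XBP1S was -0.75 (SE 0.20, edgeR adjusted p = 0.249). Slc1a5, a glutamine carrier, was at 20.4 ± 1.32 CPM in AAV-XBP1S against 13.7 ± 1.38 in AAV-GFP (0.58, edgeR adjusted p = 0.373). With AAV-ATF6N, Cad, which starts pyrimidine and so UTP synthesis, was at 28.1 ± 0.0434 against 10.8 ± 2.37 CPM (1.38, edgeR adjusted p = 0.222), and the glutamine transporter Slc38a1 at 44.1 ± 0.702 against 27.5 ± 2.44 (0.68, edgeR adjusted p = 0.253). In salvage and sialic acid synthesis, Renbp, the renin-binding protein with GlcNAc epimerase activity, was at 7.17 ± 1.21 CPM in AAV-XBP1S against 3.81 ± 1.22 (0.91, edgeR adjusted p = 0.364) and the GlcN6P deaminase gene Gnpda2, which runs against the pathway's entry step, at 12.7 ± 0.804 CPM in AAV-ATF6N against 21.7 ± 2.08 (-0.77, edgeR adjusted p = 0.233). Of the partners, Tet2, a DNA dioxygenase that binds OGT, was at 26.7 ± 2.37 CPM in AAV-ATF6N against 12.5 ± 5.67 (1.10, edgeR adjusted p = 0.314) and the mitochondrial transport adaptor Trak2 at 203 ± 23.8 against 124 ± 28.5 (0.72, edgeR adjusted p = 0.355). With AAV-XBP1S, Tet2 was at 22.2 ± 6.14 CPM (0.83, edgeR adjusted p = 0.446), its relative Tet1 at 21.8 ± 4.95 against 15.9 ± 4.10 (0.46, edgeR adjusted p = 0.576) and the sialic acid synthase gene Nans at 27.1 ± 5.87 against 18.7 ± 5.63 (0.54, edgeR adjusted p = 0.525). Cmas, which activates sialic acid, was at 40.8 ± 1.16 CPM in AAV-ATF6N against 59.4 ± 16.2 (-0.54, edgeR adjusted p = 0.378). Each n was 2, the ± values are SD, and none of these genes passed the threshold.

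As a reference for the factors' own programs in these libraries, 7 of 10 ATF6 targets passed the edgeR test in AAV-ATF6N, with a median log2 fold change of 2.28. Of 10 XBP1S targets 1 passed in AAV-XBP1S, Arfgap3 (1.81, edgeR adjusted p = 0.0371), with a median of 0.81 and 10 of 10 above 0. In the other direction, 2 of the 10 ATF6 targets, Derl3 and Sdf2l1, passed the edgeR test in AAV-XBP1S (log2 fold changes 5.19 and 2.14, adjusted p = 0.00551 and 0.0447), and the XBP1S targets were 10 of 10 above 0 in AAV-ATF6N with a median of 0.62. These targets were chosen with earlier results of the data known.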

How the data were processed

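Read counts per gene were deposited by the authors as whole numbers for 23337 genes in 6 libraries. STAR, featureCounts, DESeq2, DESeq and mm10 are named in the submitters' processing notes, while tool versions, annotation and strand mode were not given in the sources used here. RNA was extracted with a PureLink micro-scale kit and libraries made with SMART-Seq v4 and Nextera XT, per the labels, whose description names SMART-Seq2, and these kits do not keep strand. Per the file headers, the authors' deposited comparison tables hold a mean normalized signal, the log2 fold change with a standard error and a Wald statistic (both taken as scores), and p-values. Their values are printed only where the authors' table is named.

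Groups were taken from the labels, and 0 sample columns were left out. Genes were kept by filterByExpr with a count minimum of 10, which left 14587. edgeR 4.0.16 (R 4.3.3, limma 3.58.1) was run with TMM scaling and its quasi-likelihood test with the group as the only term over all 6 libraries, with 3 residual and 3.73 prior degrees of freedom and a common dispersion of 0.0921. Tests were two-sided, adjusted by Benjamini-Hochberg over the 14587 genes, and a threshold of 0.05. A standard error is the size of the log2 fold change divided by the square root of F. CPM use the TMM-adjusted library size, and CPM per kilobase the gene length of the deposited table. A floor of 3 counts equals 0.0305 to 0.0459 CPM. The script was tested on simulated data. Alternatives were DESeq2 1.42.0, RLE scaling, no filter, a replicate block, robust estimation, a gene-length offset, only the libraries compared, each library left out and, added after seeing the data, both libraries of highest Rn45s share left out.

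The members and lists were chosen with earlier results of these data known. Named genes were the members, Xbp1 and Atf6, genes past the threshold or the 2 of smallest p per list and comparison with AAV-GFP, and the 5 genes most correlated with Gfpt1 and with Ogt. One gene that the rule names is not reported here. Eogt was matched as A130022J15Rik and Adgre1 as Emr1. Exons and overlaps come from the exon coordinates deposited with the counts, and so from the annotation used for counting. Promoters come from RefSeq, which may differ from that annotation.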

Additional observations from a re-analysis of the deposited data

How the results depend on the processing

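Of 336 log2 fold changes of members under the alternatives, 307 kept direction without newly passing the threshold. Another 14 newly passed and 15 changed sign, none of the latter past the threshold. The setting without both libraries of highest Rn45s share was given no p-value, so its values were compared by direction only. With RLE scaling or robust estimation no count of members or genes moved by over 1.5 times. The numbers labelled for replicates do not pair the libraries across all groups. Pearson's r of the differences between replicates 1 and 2 was 0.38 between AAV-GFP and AAV-XBP1S. With AAV-ATF6N it was -0.04 for AAV-GFP and -0.05 for AAV-XBP1S. Whether AAV-GFP and AAV-XBP1S share an effect of the replicate was not tested. With the replicate block, 1 member passed for AAV-ATF6N against AAV-GFP (0 without it, 5 at an unadjusted p) and 1 against AAV-XBP1S, Gfpt2 in both cases (edgeR adjusted p = 0.0385 and 0.0237), and all genes called were 165 for AAV-XBP1S, 237 for AAV-ATF6N and 356 in the direct comparison. DESeq2 called 484, 573 and 803 genes, the fit without a filter 233, 348 and 458, the gene-length offset 289, 224 and 606 and the fit of only the 4 libraries compared 13, 8 and 666. Members called for AAV-ATF6N against AAV-GFP were 1 with DESeq2, no filter or the length offset, and 5 at an unadjusted p with DESeq2 or no filter. Under the alternatives the share of all genes at an unadjusted p under 0.05 was not counted. Member counts at an unadjusted p therefore have no background there. Against AAV-XBP1S 1 member was called with DESeq2, no filter, the length offset or 4 libraries. At an unadjusted p the length offset gave 3 members for AAV-XBP1S and 2 in the direct comparison. Leaving out 1 library gave 2 to 242 genes for AAV-XBP1S, 4 to 3052 for AAV-ATF6N (highest without AAV-GFP replicate 2) and 1 to 669 directly, with 0 to 3 members called for AAV-ATF6N (3 without AAV-GFP replicate 2, Gfpt2, Ogt and Pgm3) and 0 to 1 directly, and 0 to 3, 1 to 4 and 1 to 2 at an unadjusted p. An arm with 1 library was assumed to vary like the others. The spread within groups was unequal, with a chi-square per degree of freedom of 678 in AAV-GFP, 260 in AAV-XBP1S and 11.1 in AAV-ATF6N. The calls of fits with 1 library in an arm rest on that assumption. Ranges that crossed 0 were, for AAV-XBP1S, -0.039 to 0.83 (Gfpt1), -0.37 to 0.066 (Gfpt2), -0.029 to 0.81 (Ogt) and -0.16 to 1.01 (Mgea5), for AAV-ATF6N -0.21 to 0.13 (Gnpnat1) and -0.29 to 0.0083 (Nagk), and directly -0.084 to 0.79 (Gfpt1), -0.032 to 0.18 (Uap1) and -0.058 to 0.40 (member median). Nagk for AAV-ATF6N was 0.17 with the length offset. Without both libraries of highest Rn45s share, given as values only, Gfpt2 for AAV-XBP1S was 0.0067, Gnpnat1 0.13 and Nagk 0.0087 for AAV-ATF6N, and directly Gfpt1 was -0.039 and the member median -0.014. The cause of these changes was not tested. The lowest count of a member was 451, and the 2 libraries a group limit the precision.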

Other observations

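By the correlation of log2 CPM over the 6 libraries, searched in 8960 genes, the genes most like Gfpt1 were Eif2c3 (Pearson's r 0.995), Gprasp1 (0.987), Fam98a (0.984), Eri1 (0.978) and Usp37 (0.977). Those most like Ogt were Pnpt1 (0.998), Adamts1 (0.998), Wdr7 (0.998), Osbp (0.997) and Cttn (0.997). These are descriptions over 6 libraries that differ by group, with AAV-GFP replicate 1 apart from the others. The libraries of a group differed far more than by sampling of reads. The chi-square per degree of freedom was 678 in AAV-GFP, 260 in AAV-XBP1S and 11.1 in AAV-ATF6N. The AAV-ATF6N libraries were thus much closer to each other than the controls were. The tests use the same estimate of a gene's spread for all groups, so their p-values do not take this difference into account.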
